A study of Mus musculus with 12 samples.

Results

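The genes described here carry out antigen presentation on major histocompatibility complex (MHC) class II: Ciita, H2-Aa, H2-Ab1, H2-Eb1, Cd74, H2-DMa and H2-DMb1. They were picked by gene symbol, 7 of the 55401 genes counted, and all 7 passed the filter on low counts that left 16451 genes for testing. RNA was sequenced from CD11b+ CD45int cells, the gate used for microglia, sorted from the brains of male mice in 4 groups of 3 libraries. WT mice were CX3CR1 wt/wt: HDAC3 loxp/loxp and miKO mice were CX3CR1 CreER/wt: HDAC3 loxp/loxp, so both genotypes carried floxed Hdac3 and only miKO mice carried the tamoxifen-inducible Cre, which replaced 1 copy of Cx3cr1. Hdac3 encodes a histone deacetylase, and its deletion was induced with 5 days of tamoxifen at 6 to 8 weeks of age, at least a month before surgery. Surgery was either a Sham operation or transient focal cerebral ischemia (tFCI), a 60 min occlusion of the left middle cerebral artery, with cells taken 3 days later. Each library combined 3 to 4 hemispheres, and the labels place replicate 1 of every group in batch 1 and replicates 2 and 3 in batch 2.

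MHC class II molecules are pairs of an alpha and a beta chain that show peptides from the endosome to CD4+ T cells. The chains are assembled around the invariant chain, which fills the groove until cathepsins degrade it, and H2-DM then exchanges the remaining fragment for peptides, while H2-O restrains H2-DM. The transactivator CIITA binds no DNA itself and switches the genes on through a complex of RFX, CREB and NF-Y proteins on their promoters. Dendritic cells, B cells and some macrophages express class II at high levels, whereas resting microglia express little and raise it when activated.

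In the GRCm38 build, H2-DMa (17: 34119541 to 34139101), H2-DMb1 (17: 34153072 to 34160230), H2-Ab1 (17: 34257689 to 34269419), H2-Aa (17: 34282744 to 34287823) and H2-Eb1 (17: 34305867 to 34316674) lie in 1 cluster on chromosome 17. Exons of Ciita share 329 bases with Dexi, and those of H2-DMa share 360 bases with Brd2, both on the opposite strand. The library kit does not mark strand, so reads from those bases cannot be told apart, and the low Ciita counts in particular carry this limit.

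The promoter sequences below are marked for short motifs linked to that complex, whose binding was not measured. They are given for 2 chains whose levels moved together, for H2-DMb1, whose level varied far less, and for the inhibitor chain H2-Ob. RefSeq promoters of GRCm38.p6 were searched for 4 of the 7 members (H2-Aa, H2-Eb1, H2-DMb1 and H2-DMa). H2-Ab1 and Ciita had no entry, and Cd74 was left out of the search, so no sequence is given for these. Each window runs from 170 to 41 bases before the start, 130 bases in all, on the gene's own strand, and capitals mark ATTGG (the core of the Y box bound by NF-Y), TGATGATG and TGACGTCA (letters at the place of the X2 box).
H2-Aa (chr17:34287864-34287993, minus strand): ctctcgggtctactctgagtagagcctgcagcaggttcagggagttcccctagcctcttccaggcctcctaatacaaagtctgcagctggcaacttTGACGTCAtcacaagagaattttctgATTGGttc
H2-Eb1 (chr17:34305697-34305826, plus strand): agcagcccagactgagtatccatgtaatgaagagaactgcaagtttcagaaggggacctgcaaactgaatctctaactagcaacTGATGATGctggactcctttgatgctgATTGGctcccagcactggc
H2-DMb1 (chr17:34153021-34153150, plus strand): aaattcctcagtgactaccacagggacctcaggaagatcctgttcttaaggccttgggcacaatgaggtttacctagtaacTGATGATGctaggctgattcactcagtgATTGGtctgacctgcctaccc
H2-Ob (chr17:34238735-34238864, plus strand): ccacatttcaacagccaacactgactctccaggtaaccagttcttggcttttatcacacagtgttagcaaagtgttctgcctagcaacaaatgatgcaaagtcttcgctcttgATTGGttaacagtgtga
The Y box core began 48 bases before the start in H2-Aa, 59 in H2-Eb1, 61 in H2-DMb1 and 57 in H2-Ob. An upstream TGATGATG began at 86 bases in H2-Eb1 and at 89 in H2-DMb1, and TGACGTCA at 74 in H2-Aa. The H2-DMb1 promoter entry starts downstream of the gene start given above (34153072), so both its motifs lie inside the gene as placed there. H2-Ob held only ATTGG, so that was the only motif shared by all these windows. Over the 250 bases before the start and on both strands, ATTGG was in 33.8% of 32851 promoters, TGATGATG in 1.24% and TGACGTCA in 1.55%, and 0.883% held ATTGG with either of the other motifs. No match of one motif overlapped another in these 4 promoters. H2-DMa has 2 promoter entries, of which 1 held none of the 3 motifs and the other a single ATTGG beginning 198 bases before its start. Both entries also lie inside the gene as placed above. The letters were chosen after the sequences had been read, and a match describes a window, not a bound site.

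Depth was even, with 7697864 to 9452222 counts on genes per library, which were 30.7% to 38.5% of the counted reads. Hdac3 was lower in miKO than in WT libraries with no overlap in either surgery (log2 fold change −0.81, SE 0.16, adjusted p = 0.00281 in Sham, and −0.71, SE 0.16, adjusted p = 0.0127 in tFCI, quasi-likelihood test of edgeR, Benjamini-Hochberg adjusted). All 12 listed microglia markers were present in every library, and their summed level was 30555 to 40426 CPM (counts scaled to library size) in WT-Sham, 28772 to 34312 in miKO-Sham, 21816 to 24233 in WT-tFCI and 11100 to 21286 in miKO-tFCI. The libraries pool cells, so fewer cells of a type and less RNA per cell cannot be told apart. Cx3cr1 is 1 of the 12 markers, and miKO mice lack 1 copy of it. Their summed level, and the scaling to these markers used below, therefore differ by genotype in part through the design.

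The files of miKO-Sham replicates 1 and 2 carry the same sample tag in their names, although the labels give them as separate replicates in different batches. Their counts differed by more than sampling noise (chi-square per degree of freedom 2.82), less than those of any other pair within a group. If they came from 1 library, miKO-Sham would hold 2 samples, and its SEs, separations and permutation p-values would rest on those. With both summed as 1 library, H2-DMa fell by 1.05 in miKO-tFCI vs. miKO-Sham and by 0.97 in the interaction, both still called, and H2-DMa (0.63) and Cd74 (1.88) became calls in miKO-Sham vs. WT-Sham.

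Levels of the class II chains differed more between libraries of the same group than between groups. On a scale that allows genes to be compared (counts per library size and exon length, RPKM), Cd74 was the most abundant of the chain genes in every library, followed by H2-Ab1, H2-Eb1 and H2-Aa, and Ciita was the least abundant of the 7. Together H2-Aa, H2-Ab1, H2-Eb1 and Cd74 took 0.023% to 0.376% of all counts, a 17-fold range of summed CPM. The lowest sum was in WT-tFCI replicate 3 and the highest in miKO-tFCI replicate 1.

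Ciita, the transactivator, lies on chromosome 16 (10480059 to 10528418). It was at 0.30, 0.21 and 0.20 RPKM in WT-Sham replicates 1 to 3, at 0.17, 0.015 and 0.36 in miKO-Sham, at 0.97, 0.12 and 0.051 in WT-tFCI and at 2.30, 0.14 and 0.13 in miKO-tFCI. These levels rest on 1 to 212 counts, and 8 of the 12 libraries had under 20. The 2 tFCI libraries of batch 1 stood above all others, and every pair of groups overlapped.

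H2-Aa, the alpha chain of I-A, was at 29.7, 12.3 and 12.0 RPKM in WT-Sham replicates 1 to 3, at 13.7, 13.7 and 31.6 in miKO-Sham, at 60.9, 6.11 and 6.48 in WT-tFCI and at 151.6, 11.9 and 9.40 in miKO-tFCI. H2-Ab1, its beta chain partner, was at 78.3, 40.5 and 35.3 RPKM in WT-Sham, at 30.0, 29.2 and 103.7 in miKO-Sham, at 173.5, 21.1 and 22.0 in WT-tFCI and at 435.1, 34.9 and 29.6 in miKO-tFCI. H2-Eb1, the beta chain of I-E, was at 51.0, 20.1 and 18.4 RPKM in WT-Sham, at 16.7, 21.1 and 48.3 in miKO-Sham, at 82.3, 10.2 and 8.96 in WT-tFCI and at 208.1, 16.7 and 18.4 in miKO-tFCI. In each of these genes replicate 1 was the highest of its group in WT-Sham, WT-tFCI and miKO-tFCI, while in miKO-Sham it was replicate 3. In the 4 comparisons below every one of these genes overlapped between the groups. No gene counted carried the symbol H2-Ea, for the alpha chain of I-E. Only the pseudogene entry H2-Ea-ps was present, with at most 3 counts in a library, so the H2-Eb1 level says nothing of a complete I-E pair.

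Cd74, the invariant chain, lies on chromosome 18 (60803848 to 60812652). It was at 202.0, 119.6 and 112.8 RPKM in WT-Sham, at 209.4, 206.3 and 470.0 in miKO-Sham, at 377.3, 75.0 and 69.8 in WT-tFCI and at 934.9, 145.8 and 125.4 in miKO-tFCI. It had the same high libraries as the chains, and the 3 miKO-Sham libraries lay above all 3 WT-Sham libraries.

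H2-DMa, the alpha chain of the peptide exchange factor H2-DM, was at 97.9, 64.4 and 62.8 RPKM in WT-Sham, at 101.6, 99.7 and 104.8 in miKO-Sham, at 82.3, 67.7 and 61.0 in WT-tFCI and at 61.7, 53.3 and 50.7 in miKO-tFCI. H2-DMb1, a beta chain of H2-DM, was at 82.9, 90.6 and 86.2 RPKM in WT-Sham, at 89.2, 80.0 and 93.0 in miKO-Sham, at 102.7, 98.8 and 88.3 in WT-tFCI and at 96.9, 76.3 and 75.6 in miKO-tFCI. In the batch 1 tFCI libraries both genes were the highest of their group, but by much less than the chains. Against the mean of replicates 2 and 3, H2-DMa was 1.28-fold higher in WT-tFCI and 1.19-fold in miKO-tFCI. H2-DMb1 was 1.10-fold and 1.275-fold higher, against 9.67-fold and 14.2-fold for H2-Aa. From the lowest to the highest library H2-DMa spanned 2.07-fold and H2-DMb1 1.36-fold, against 24.8-fold for H2-Aa, 20.6-fold for H2-Ab1, 23.2-fold for H2-Eb1 and 13.4-fold for Cd74.

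**Figure D1:**
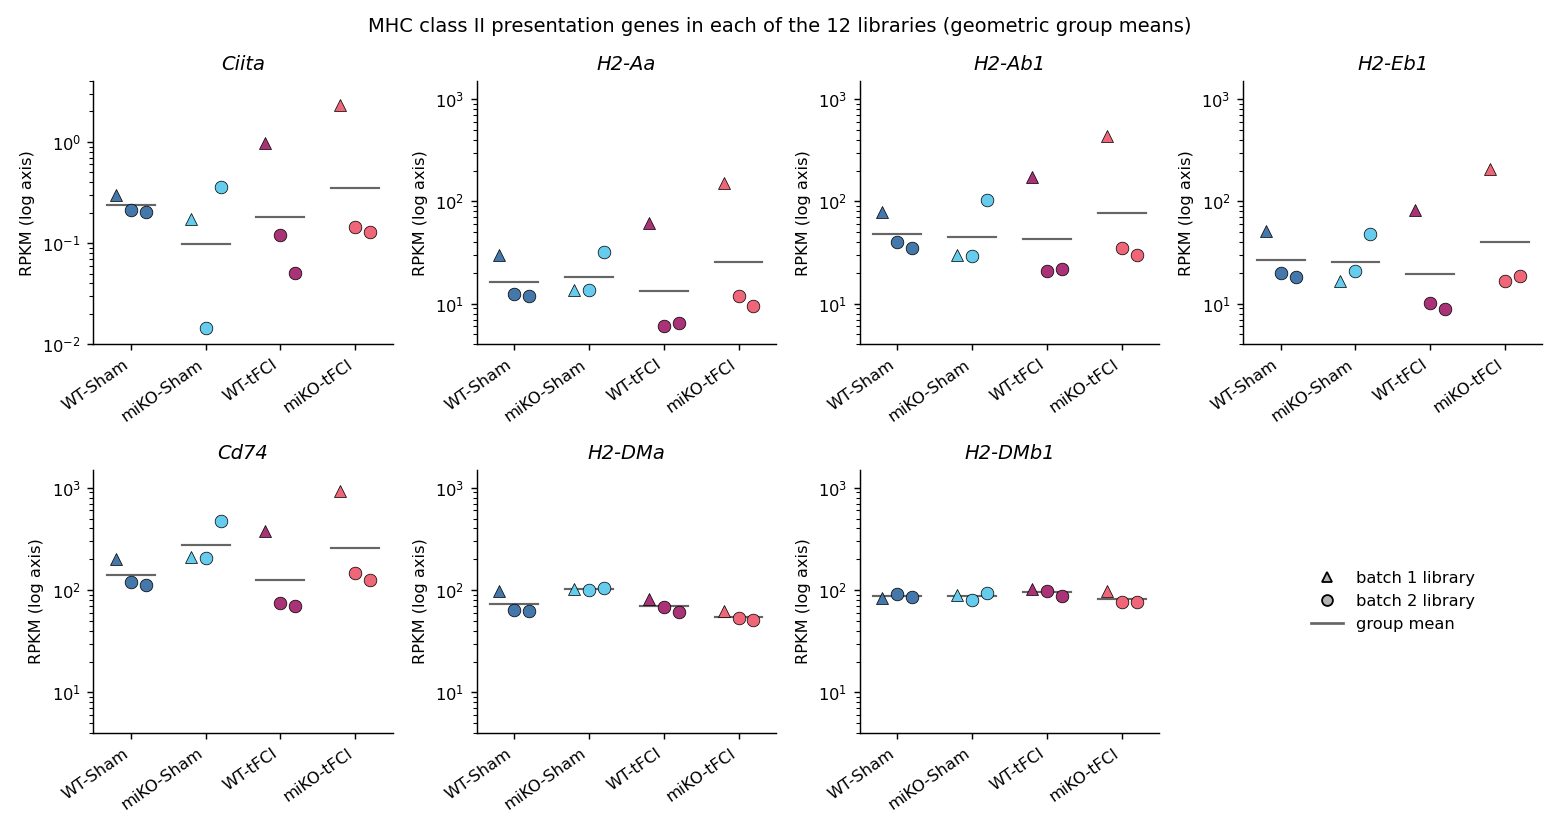
RPKM of each of the 7 genes (log axis, with a separate range for Ciita) in the 12 libraries by group. Triangles are batch 1 libraries, circles are batch 2 libraries and bars are geometric means of 3 libraries. Ciita, the 3 chain genes and Cd74 were highest in miKO-tFCI replicate 1 and next highest in WT-tFCI replicate 1 or, for Cd74, in miKO-Sham replicate 3, while H2-DMa and H2-DMb1 spanned 2.07-fold and 1.36-fold.

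The first question was what tFCI did to class II presentation genes in WT microglia. None of the 7 genes passed the test in WT-tFCI vs. WT-Sham, where 32.6% of the 16451 genes tested were called. A call was an adjusted p under 0.05 with an absolute log2 fold change above 0.58 in edgeR's quasi-likelihood test, with group and batch as terms. All 7 overlapped between the groups, which 49.8% of the genes tested did not. No member had an unadjusted p under 0.05 and DESeq2 called 0 of the 7. The fitted log2 fold changes lay between −0.36 (H2-Eb1, SE 0.64) and 0.15 (H2-DMb1, SE 0.13), and their median was −0.13 against 0.02 for all genes tested.

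These small fitted values stood between opposite values in the batches. H2-Aa was higher after tFCI by 1.04 on the log2 scale in batch 1 and lower in batch 2 (−0.94). H2-Ab1 gave 1.15 and −0.81, H2-Eb1 0.69 and −1.003, Cd74 0.90 and −0.68, and Ciita 1.60 and −1.14. With batch 2 alone, 2 members passed the test, H2-Aa and H2-Eb1, and both were lower. H2-DMa (−0.25 and 0.01) and H2-DMb1 (0.31 and 0.08) stayed close to 0 in both batches.

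In miKO mice tFCI was accompanied by a lower H2-DMa, and by the same split of the chains. H2-DMa fell by 0.90 on the log2 scale in miKO-tFCI vs. miKO-Sham (SE 0.14, adjusted p = 0.000152, edgeR's quasi-likelihood test), with the 3 miKO-tFCI libraries below all 3 miKO-Sham libraries and values of −0.72 in batch 1 and −0.97 in batch 2. It was the only member called, where 13.9% of all genes were called lower and 35.8% in either direction, and the only one without overlap, as were 48.2% of all genes. Brd2, which shares exon bases with H2-DMa, fell in the same comparison (−0.86, SE 0.16, adjusted p = 7.47e-04, edgeR), and its part in the H2-DMa counts was not tested. With libraries scaled to the 12 microglia markers in place of all genes, H2-DMa gave 0.04 and lost its call, while the median of all genes moved from 0.03 to 0.98, so H2-DMa stayed below that median.

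Among the chains, H2-Aa gave 3.46 in batch 1 and −0.97 in batch 2 in this comparison, H2-Ab1 3.85 and −0.78, H2-Eb1 3.63 and −0.86, and Cd74 2.16 and −1.20. The fitted values were 0.17 (SE 0.68), 0.27 (SE 0.75), 0.24 (SE 0.67) and −0.34 (SE 0.54), none of them called. Ciita gave 3.54 and 0.39, with a fitted 1.17 (SE 0.91, adjusted p = 0.321, edgeR). Without miKO-Sham replicate 3 it passed, at 3.25. Batch 2 alone called 4 members, all lower, including H2-Aa (−1.12) and H2-Eb1 (−1.02), where 4412 of 16219 genes tested were called in either direction.

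The second question was whether loss of Hdac3 altered these genes without ischemia. No member was called in miKO-Sham vs. WT-Sham, where 15.4% of all genes were, and DESeq2 called 0 of 7. Cd74 and H2-DMa had unadjusted p-values under 0.05 and were the 2 members whose groups did not overlap, both higher in miKO-Sham. Of all genes tested 33.2% did not overlap in either direction and 17% were higher without overlap. Cd74 differed by 1.31 (SE 0.52, adjusted p = 0.0961, edgeR) and H2-DMa by 0.47 (SE 0.14, adjusted p = 0.0268, edgeR), which is under the limit of 0.58.

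The chain genes did not share this separation. H2-Aa differed by 0.66 (SE 0.64), H2-Ab1 by 0.57 (SE 0.69) and H2-Eb1 by 0.52 (SE 0.63), with adjusted p-values from 0.531 to 0.63 (edgeR). Their values were negative in batch 1, from −1.11 (H2-Aa) to −1.60 (H2-Eb1), and positive in batch 2, from 0.54 (H2-Ab1) to 0.78 (H2-Aa). H2-DMb1 differed by 0.01 (SE 0.13).

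The Cd74 difference itself was 0.05 in batch 1 and 1.42 in batch 2. It passed the test when the batch effect was fitted separately for Sham and tFCI, and when miKO-Sham replicates 1 and 2 were summed as 1 library, alternatives chosen after the data had been seen. Without single libraries its log2 fold change ranged from 0.46 to 1.86, and without miKO-Sham replicate 1 both Cd74 (1.86) and H2-DMa (0.61) passed. H2-DMa also passed without WT-Sham replicate 1 (0.61).

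The third question was whether microglia lacking Hdac3 differed after ischemia. The chains, Cd74 and Ciita were all higher in miKO-tFCI vs. WT-tFCI in both batches, and none was called, where 8.79% of all genes were. H2-Aa differed by 1.06 (SE 0.63), H2-Ab1 by 0.99 (SE 0.69), H2-Eb1 by 1.12 (SE 0.62), Cd74 by 1.11 (SE 0.51) and Ciita by 1.00 (SE 0.81), with adjusted p-values from 0.186 (Cd74) to 0.468 (Ciita, edgeR). Batch 1 alone gave 1.23 to 1.34 for these 5 genes and batch 2 alone 0.58 to 0.90. In each gene the WT-tFCI library of batch 1 lay above the 2 miKO-tFCI libraries of batch 2, so the groups overlapped, as did all 7 members, where 22.9% of all genes tested did not (9.58% higher and 13.3% lower).

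Cd74 and H2-DMa had unadjusted p-values under 0.05, and DESeq2 called 0 of 7. Without miKO-tFCI replicate 1 the difference turned to −0.12 for H2-Aa, −0.27 for H2-Ab1 and −0.46 for Ciita, and became 0.04 for H2-Eb1 and 0.27 for Cd74. Fits with only the 2 groups, or with no filter on low counts, called 4 members higher. Of all genes tested they called 2535 of 15478 and 2193 of 34185 in either direction. H2-DMa differed by −0.34 (SE 0.14, adjusted p = 0.132, edgeR) and H2-DMb1 by −0.22 (SE 0.13, adjusted p = 0.291, edgeR), and both were lower in each batch.

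The test of whether genotype altered the response to tFCI called H2-DMa alone of the members, where 3.82% of all genes were called at an adjusted p under 0.05 and 2.57% were called lower. Its interaction was −0.82 on the log2 scale (SE 0.20, adjusted p = 0.0311, edgeR), −0.47 in batch 1 and −0.99 in batch 2. The response in WT mice was −0.08 and that in miKO mice −0.90. The call did not hold without WT-Sham replicate 2 or 3, miKO-Sham replicate 2, any WT-tFCI replicate or miKO-tFCI replicate 3 (adjusted p between 0.0541 and 0.118, edgeR), nor without the batch term or with libraries scaled to microglia markers. The chains gave interactions of 0.40 to 0.59 with SEs of 0.89 to 0.97, Cd74 −0.20 (SE 0.72) and Ciita 1.27 (SE 1.22).

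**Figure D2:**
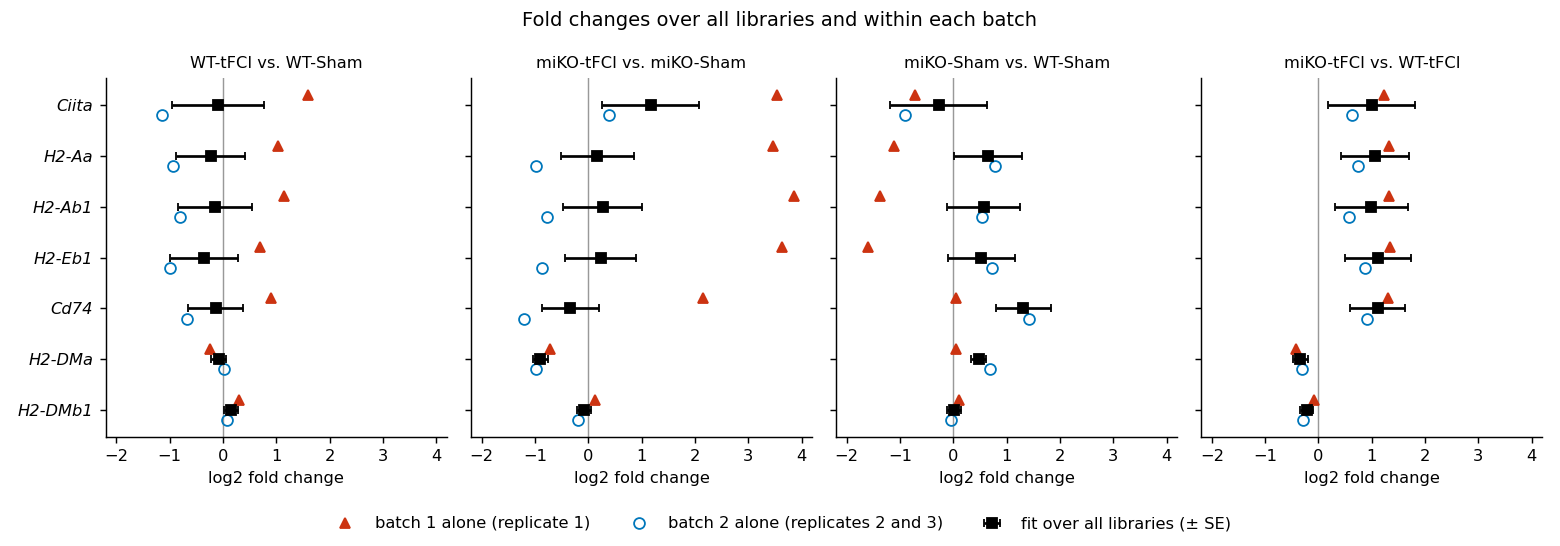
Log2 fold changes of the 7 genes in the 4 comparisons. Squares with bars are fitted values ± SE over all 12 libraries, triangles are batch 1 libraries alone (1 against 1) and open circles are batch 2 libraries alone (2 against 2). After tFCI the chains and Cd74 lay on opposite sides of 0 in the batches, as with H2-Aa in WT mice at 1.04 and −0.94.

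Batch was therefore fitted as an effect in its own right, a test added after the data had been seen. H2-Aa was higher in batch 1 by 2.29 on the log2 scale (SE 0.51, adjusted p = 0.0151), H2-Ab1 by 2.10 (SE 0.56, 0.0304), H2-Eb1 by 2.14 (SE 0.50, 0.018), Cd74 by 1.55 (SE 0.40, 0.0258) and Ciita by 2.28 (SE 0.64, 0.0357), all by edgeR's quasi-likelihood test. Thus 5 of 7 members passed at an adjusted p under 0.05, where 8.24% of all genes were higher in batch 1, 2.56% were lower and 10.8% passed in either direction. H2-DMa (0.31, adjusted p = 0.065, edgeR) and H2-DMb1 (0.11, adjusted p = 0.47, edgeR) did not pass. The miKO-Sham group did not follow the other groups, since its batch 1 library was close to its replicate 2, and of all pairs of libraries within a group these were the closest in their counts. What differed between the batches is not given in the sources used here.

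The chains varied together from library to library. Over the 12 libraries the log2 CPM of H2-Aa correlated with that of H2-Ab1 at r = 0.99, of H2-Eb1 at r = 0.99, of Cd74 at r = 0.94 and of Ciita at r = 0.87, but with that of H2-DMa at r = 0.25 and of H2-DMb1 at r = 0.43. These correlations are descriptions, given with no p, and the libraries share batches and groups. H2-Aa and H2-Ab1, the 2 chains of 1 heterodimer, kept a ratio of RPKM between 0.29 and 0.47, a 1.62-fold span, while each spanned over 20-fold.

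Of 15741 genes with a mean of at least 1 CPM, the 8 genes other than members whose log2 CPM was most like the mean standardized level of H2-Aa, H2-Ab1, H2-Eb1 and Cd74 over the 12 libraries were Gm44732 (r = 0.94), Cdkn1c (r = 0.94), Ifi27 (r = 0.92), Ccdc85b (r = 0.91), Tmem53 (r = 0.90), Mest (r = 0.89), Hemk1 (r = 0.89) and Dgat1 (r = 0.88). Cdkn1c, a cyclin-dependent kinase inhibitor, was at 35.3, 7.39 and 5.36 CPM in WT-tFCI and at 77.7, 12.6 and 15.9 CPM in miKO-tFCI, with the same high libraries. Ciita ranked 23rd with r = 0.86. H2-DMb1 (r = 0.42) and H2-DMa (r = 0.26) ranked far below.

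Markers of other cells that express class II differed between the same libraries. In the study's gating, dendritic cells and macrophages are CD45hi and B and T cells are also CD11b−, so the CD11b+ CD45int gate would leave them out. In each group the library with the highest summed level of the 4 chain genes, identified from its values, was set against the mean of the 2 others. A marker could be counted as different only with at least 1 CPM on either side, while the list sizes below include all its markers. The share of all genes that differed as much between these libraries is not given here. The sum was 2.00-fold higher in WT-Sham replicate 1, 2.47-fold in miKO-Sham replicate 3, 6.70-fold in WT-tFCI replicate 1 and 9.52-fold in miKO-tFCI replicate 1.

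WT-Sham replicate 1 had 2 of 12 dendritic cell, 5 of 12 monocyte and macrophage and 4 of 8 neutrophil markers at least 2-fold higher than in replicates 2 and 3, and 1 dendritic cell marker at least 2-fold lower. Of these lists 11, 8 and 5 markers could be counted. S100a8, a calcium-binding protein of neutrophils, was at 272 CPM there against a mean of 17.7, and Igkc, an immunoglobulin light chain gene, at 22.2 CPM against 0.10. Igkc was the only 1 of 12 B cell markers at least 2-fold higher there. The summed B cell list was at 451 CPM against a mean of 508.

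In miKO-tFCI replicate 1, 9 of 12 dendritic cell markers and 10 of 12 monocyte and macrophage markers were at least 2-fold higher than in replicates 2 and 3, while 8 of 12 markers of border-associated macrophages were at least 2-fold lower. Flt3, a growth factor receptor of dendritic cells, had 297 counts there against 20 and 27. Cd209a, a lectin of monocyte-derived dendritic cells, had 488 against 19 and 11. Ccr7, the receptor with which dendritic cells migrate to lymph nodes, was at 239.0 CPM against 36.2 and 38.3. The summed dendritic list was at 561 CPM there and at 115 to 124 in replicates 2 and 3, the monocyte list at 1043 against 457 and 527, and the microglia list at 11100 against 17738 and 21286.

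WT-tFCI replicate 1 had the same direction with 4 of 12 dendritic cell and 8 of 12 monocyte and macrophage markers at least 2-fold higher and 4 of 12 border-associated macrophage markers at least 2-fold lower. Flt3 had 99 counts there against 15 and 19, and Cd209a 113 against 20 and 5. The summed dendritic list was at 303 CPM against 127 and 145, but at 285 to 338 in the 3 WT-Sham libraries, where the chains were lower than in WT-tFCI replicate 1. Most of these WT-Sham sums came from 1 marker, Fscn1. It was at 271 CPM in WT-Sham replicate 1 and at a mean of 239 in replicates 2 and 3, against 134 in WT-tFCI replicate 1.

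In miKO-Sham replicate 3 the class II chains were high beside a different list. There 9 of 12 markers of border-associated macrophages were at least 2-fold higher than in replicates 1 and 2, against 2 of 12 dendritic cell markers. Lyve1, a hyaluronan receptor of these macrophages, was at 19.7 CPM against 2.78 and 1.94, and Mrc1, the mannose receptor, at 81.7 against 19.6 and 17.5. The summed list did not show this (1461 CPM against 1614 and 1680). Most of that sum came from 1 marker, Stab1, which was at 1068 CPM there against a mean of 1537. In miKO-tFCI replicate 1, with the highest chains of all, Mrc1 was at 17.5 CPM against 142.9 and 161.7, and Lyve1 at 4.23 against 33.4 and 58.0.

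Among B cell markers, Cd79a, a signalling chain of the B cell receptor, had 60 counts in miKO-tFCI replicate 1 and 24 in WT-tFCI replicate 1, against 3 to 16 in the others. In miKO-tFCI replicate 1, 6 of 12 B cell markers and 7 of 10 T cell markers were at least 2-fold higher than in replicates 2 and 3, and in WT-tFCI replicate 1 these numbered 3 and 4. Of each list 8 markers could be counted in miKO-tFCI replicate 1, where 1 T cell marker was at least 2-fold lower, and 6 in WT-tFCI replicate 1. Ighm, an immunoglobulin heavy chain gene that supplied much of the summed B cell list, was not among the higher markers (134 CPM in miKO-tFCI replicate 1 against a mean of 146). The summed B cell list had r = 0.10 with the mean level of the chains, and the T cell list 0.51, with 7 to 41 CPM. Neutrophil markers gave r = 0.17 (462 to 1155 CPM). For dendritic cells the summed list gave r = 0.53, and for monocytes and macrophages 0.31. Border-associated macrophages gave −0.17 and microglia −0.46. The part of these cell types in the class II levels was not tested.

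**Figure D3:**
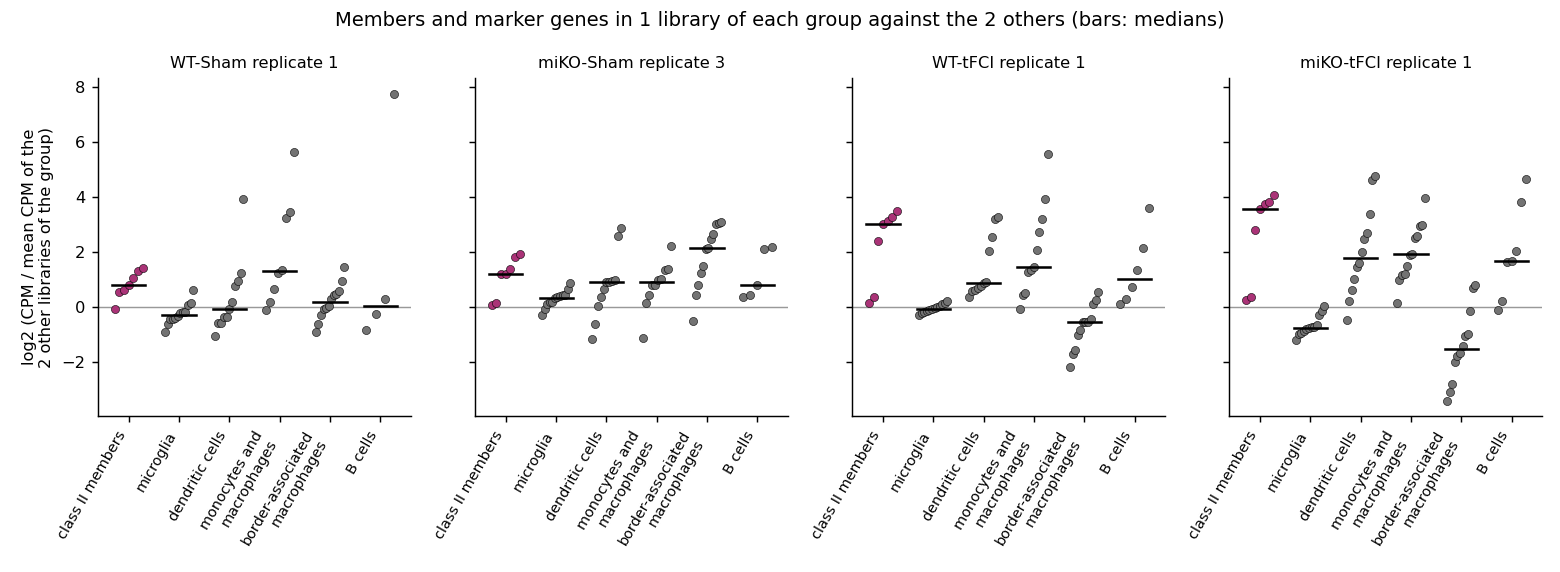
Log2 ratio of CPM in 1 library of each group, the one with the highest summed chains, to the mean of the 2 other libraries, for the 7 class II genes and for markers of 5 cell types with at least 1 CPM on either side and no value of 0. Points are genes and bars are medians. The median of border-associated macrophage markers was 2.12 in miKO-Sham replicate 3 (11 of 12 above 0), −0.56 in WT-tFCI replicate 1 (9 of 12 below 0) and −1.55 in miKO-tFCI replicate 1 (10 of 12 below 0), while that of dendritic cell markers was 0.88, 0.85 and 1.79 in these libraries.

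Ratios within a library do not depend on how libraries are scaled. The ratio of Cd74 to H2-Ab1 (in RPKM) was 2.58 to 3.19 in WT-Sham, 4.53 to 7.06 in miKO-Sham, 2.18 to 3.56 in WT-tFCI and 2.15 to 4.24 in miKO-tFCI. In miKO-Sham it was higher than in WT-Sham by 1.07 on the log2 scale, and no library of the groups overlapped. The ratios of Cd74 to H2-Aa and to H2-Eb1 were also separated, by 0.82 and 1.02. With 3 libraries against 3 the exact two-sided permutation test cannot give a p below 0.1, which is what each of these gave (0.257 after Benjamini-Hochberg adjustment over the 36 tests of ratios). After tFCI the ratio of Cd74 to H2-Ab1 differed between genotypes by 0.21 (exact permutation p = 0.6), with overlap.

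The ratio of H2-DMa to H2-DMb1, the chains of H2-DM, was 0.71 to 1.18 in WT-Sham, 1.13 to 1.25 in miKO-Sham, 0.68 to 0.80 in WT-tFCI and 0.64 to 0.70 in miKO-tFCI. The miKO-tFCI libraries lay below all miKO-Sham libraries, by 0.81 on the log2 scale (exact permutation p = 0.1, the smallest possible). In WT-Sham only replicate 1 reached the miKO-Sham range.

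H2-DMb1 relative to H2-Ob, the beta chain of the inhibitor of H2-DM, separated all 4 comparisons. The ratio was 8.78 to 10.7 in WT-Sham, 22.8 to 26.9 in miKO-Sham, 17.2 to 21.6 in WT-tFCI and 30.5 to 37.1 in miKO-tFCI. The log2 differences were 1.30 between the genotypes after Sham and 0.82 after tFCI, and 0.95 for tFCI in WT and 0.47 in miKO mice, each with the smallest exact permutation p of 0.1. H2-DMb1 itself was not called in any comparison.

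**Figure D4:**
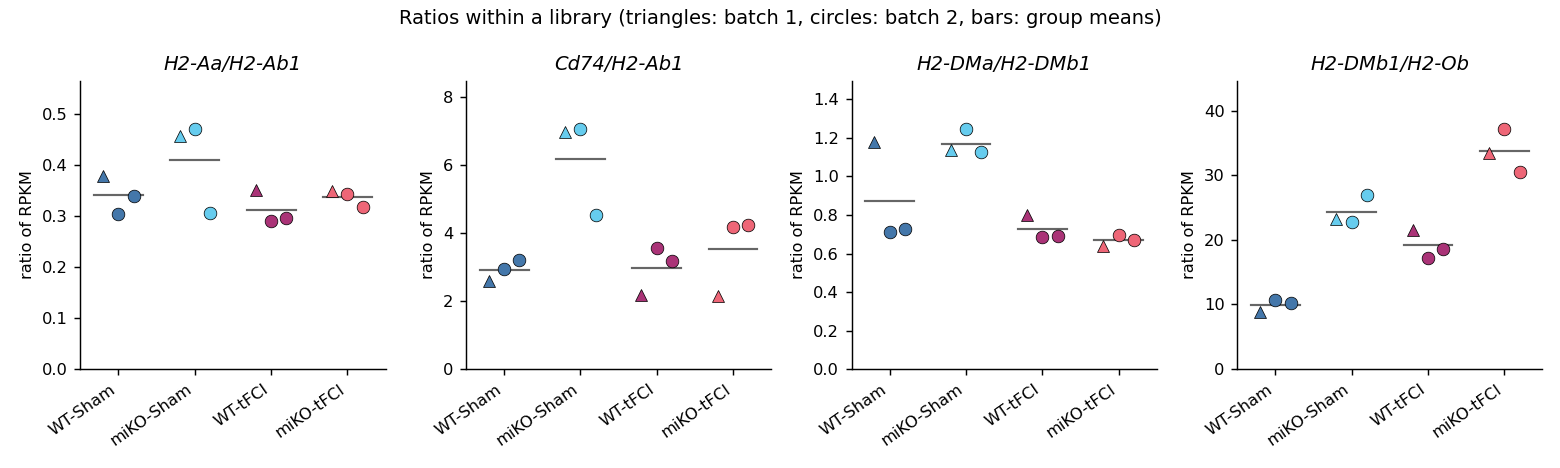
Ratios of RPKM of 2 genes within each library, by group. Triangles are batch 1 libraries, circles batch 2 libraries and bars group means. H2-Aa to H2-Ab1 stayed between 0.29 and 0.47, Cd74 to H2-Ab1 was highest in miKO-Sham (4.53 to 7.06), and H2-DMb1 to H2-Ob was higher in miKO than in WT libraries after either surgery.

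Other genes of the pathway were called where the members were not. Of 41 further pathway genes tested, 9 rose and 7 fell in WT-tFCI vs. WT-Sham, 2 rose and 12 fell in miKO-tFCI vs. miKO-Sham, 11 rose and 4 fell in miKO-Sham vs. WT-Sham, and 4 rose and 4 fell in miKO-tFCI vs. WT-tFCI. The interaction called 6, all lower, where 3.82% of all genes were called and 2.57% lower. The shares of all genes tested that rose and fell were 20.9% and 11.7% for tFCI in WT mice, 21.9% and 13.9% for tFCI in miKO mice, 8.58% and 6.8% for genotype after Sham, and 4.08% and 4.71% for genotype after tFCI. With libraries scaled to the microglia markers, whose summed level was lower after tFCI, the pathway genes called numbered 15 higher and 0 lower, 19 and 0, 13 and 4, and 12 and 1 in these comparisons. That scaling also called 7124, 10120, 2382 and 5212 of all 16451 genes in either direction, so the shares above do not apply to it. In the fit over all genes the median log2 fold changes of the pathway genes were −0.17, −0.28, 0.14 and −0.07, against 0.02 to 0.04 over all genes.

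Genes of H2-O, which restrains H2-DM, were lower in miKO mice. H2-Oa was at 61.3, 35.7 and 36.6 CPM in WT-Sham and at 10.0, 9.99 and 9.61 CPM in miKO-Sham, with no overlap, and fell by 2.11 on the log2 scale (SE 0.32, adjusted p = 2.73e-04, edgeR). After tFCI it was at 33.6, 24.1 and 21.2 CPM in WT and at 22.4, 7.04 and 3.71 CPM in miKO libraries, a log2 fold change of −1.40 (SE 0.32, adjusted p = 0.0123, edgeR). Scaled to the microglia markers this became −0.80 and was not called. The groups overlapped there through miKO-tFCI replicate 1, and H2-Oa also differed between the batches (0.88, adjusted p = 0.0268, edgeR).

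H2-Ob was at 45.7 to 50.8 CPM in WT-Sham, 18.6 to 20.7 in miKO-Sham, 25.5 to 30.9 in WT-tFCI and 11.1 to 15.6 in miKO-tFCI. Each genotype comparison was separated, with log2 fold changes of −1.29 (SE 0.15, adjusted p = 3.22e-05) after Sham and −1.04 (SE 0.16, adjusted p = 8.58e-04, edgeR) after tFCI. In WT mice it also fell after tFCI (−0.79, SE 0.15, adjusted p = 8.65e-04, edgeR), so H2-Ob was called in 3 comparisons and H2-DMb1 in none. Scaled to the microglia markers, H2-Ob kept its call after Sham (−1.07) and lost it after tFCI (−0.50) and for tFCI in WT mice (−0.16).

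H2-DMb2, another beta chain gene of H2-DM whose sequence is close to that of H2-DMb1, rose in miKO-Sham (1.10, SE 0.27, adjusted p = 0.00994, edgeR) from 12.5 to 15.2 CPM to 28.8 to 29.8 CPM. It fell again in miKO-tFCI vs. miKO-Sham (−0.98, SE 0.27, adjusted p = 0.00943, edgeR), a call lost with the microglia scaling (−0.011). Reads shared with H2-DMb1, which was at 127 to 173 CPM, make this value uncertain.

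Of 20 factors that bind class II promoters or induce them, 0 rose and 2 fell in miKO-Sham vs. WT-Sham. Of all genes 8.58% rose and 6.8% fell there, so these counts do not set the factors apart as a group. Rfx5, the DNA-binding subunit of RFX, fell by 1.00 (SE 0.16, adjusted p = 5.23e-04, edgeR) after Sham, from 24.9 to 26.0 CPM in WT to 11.4 to 14.2 CPM in miKO libraries. After tFCI it was again lower in miKO mice, by 0.97 (SE 0.16, adjusted p = 0.00203, edgeR), with 18.2 to 24.1 CPM against 10.2 to 11.5, but the microglia scaling gave −0.43 and no call. Its partner Rfxank was not called in any comparison and Rfxap only in WT-tFCI vs. WT-Sham (−0.58, SE 0.19, adjusted p = 0.0231, edgeR, and 0.045 with the microglia scaling). The other factor that fell in miKO-Sham was Irf4, named after its values were seen (−2.93, SE 0.54, adjusted p = 0.00131, edgeR), at 4.15 to 6.25 CPM in WT-Sham and 0.28 to 1.25 in miKO-Sham.

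Ifngr1, a subunit of the receptor for interferon-gamma, which induces Ciita, fell after tFCI in WT (−1.16, SE 0.17) and in miKO mice (−1.10, SE 0.17, adjusted p = 1.15e-04 and 1.63e-04, edgeR), and with the microglia scaling it gave −0.54 and −0.18 and neither was called. Spi1, which encodes the myeloid factor PU.1, fell in miKO-tFCI vs. miKO-Sham (−0.70, SE 0.13, adjusted p = 5.04e-04, edgeR), and so did Irf8 (−0.93, SE 0.14, adjusted p = 9.46e-05, edgeR), though scaled to the microglia markers they gave 0.25 and 0.0032. Both stayed below the median of all genes, which that scaling moved from 0.03 to 0.98.

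Genes of endosomal processing rose in miKO-Sham. There 8 of 10 were called higher and 0 lower, where 8.58% of all genes were called higher. Ctss, the cathepsin that trims the invariant chain, was at 4863 to 5170 CPM in WT-Sham and at 15380 to 15993 CPM in miKO-Sham, and rose by 1.65 (SE 0.19, adjusted p = 1.96e-05, edgeR). It fell in miKO-tFCI vs. miKO-Sham (−1.07, SE 0.18, adjusted p = 3.41e-04, but −0.16 and not called with the microglia scaling) and stayed above WT-tFCI (0.70, SE 0.18, adjusted p = 0.0253, edgeR). Ifi30, a reductase that opens disulfide bonds of antigens, rose by 1.61 (SE 0.23, adjusted p = 1.55e-04, edgeR) in miKO-Sham. The others were Ctsb (2.00), Ctsz (1.58), Lamp1 (1.51), Ctsd (1.21), Ctsl (0.97) and Lamp2 (0.92). Their values in the batches had the same sign, unlike those of the chains.

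After tFCI in WT mice 5 of these 10 genes rose, where 20.9% of all genes did, led by Ifi30 (2.36, SE 0.23, adjusted p = 2.63e-06, edgeR). The interaction was called lower for 4 of the 10, where 2.57% of all genes were: Ctsb (−1.05), Ctsd (−1.17), Ctsz (−1.44) and Ifi30 (−1.90).

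Among genes that set how long class II stays at the surface, March1, the ubiquitin ligase that targets class II for degradation, fell after tFCI in both genotypes (−1.19, SE 0.22, adjusted p = 6.16e-04 in WT and −0.91, SE 0.22, adjusted p = 0.00377 in miKO, edgeR). With the microglia scaling these became −0.56 and −0.020, neither of them called. Cd83, which opposes March1, was at 1684 to 2792 CPM in WT-tFCI and at 533 to 1035 CPM in miKO-tFCI, a log2 fold change of −1.58 (SE 0.17, adjusted p = 5.08e-05, edgeR). It rose after tFCI in WT (0.96, SE 0.17) and fell in miKO mice (−0.90, SE 0.17, but 0.033 with the microglia scaling), and the interaction was −1.87 (SE 0.24, adjusted p = 5.53e-04, edgeR). Cd9, a tetraspanin that associates with class II, rose in miKO-Sham by 2.11 (SE 0.15, adjusted p = 4.25e-07, edgeR), and its interaction was −1.56 (SE 0.21, adjusted p = 7.61e-04, edgeR).

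**Figure D5:**
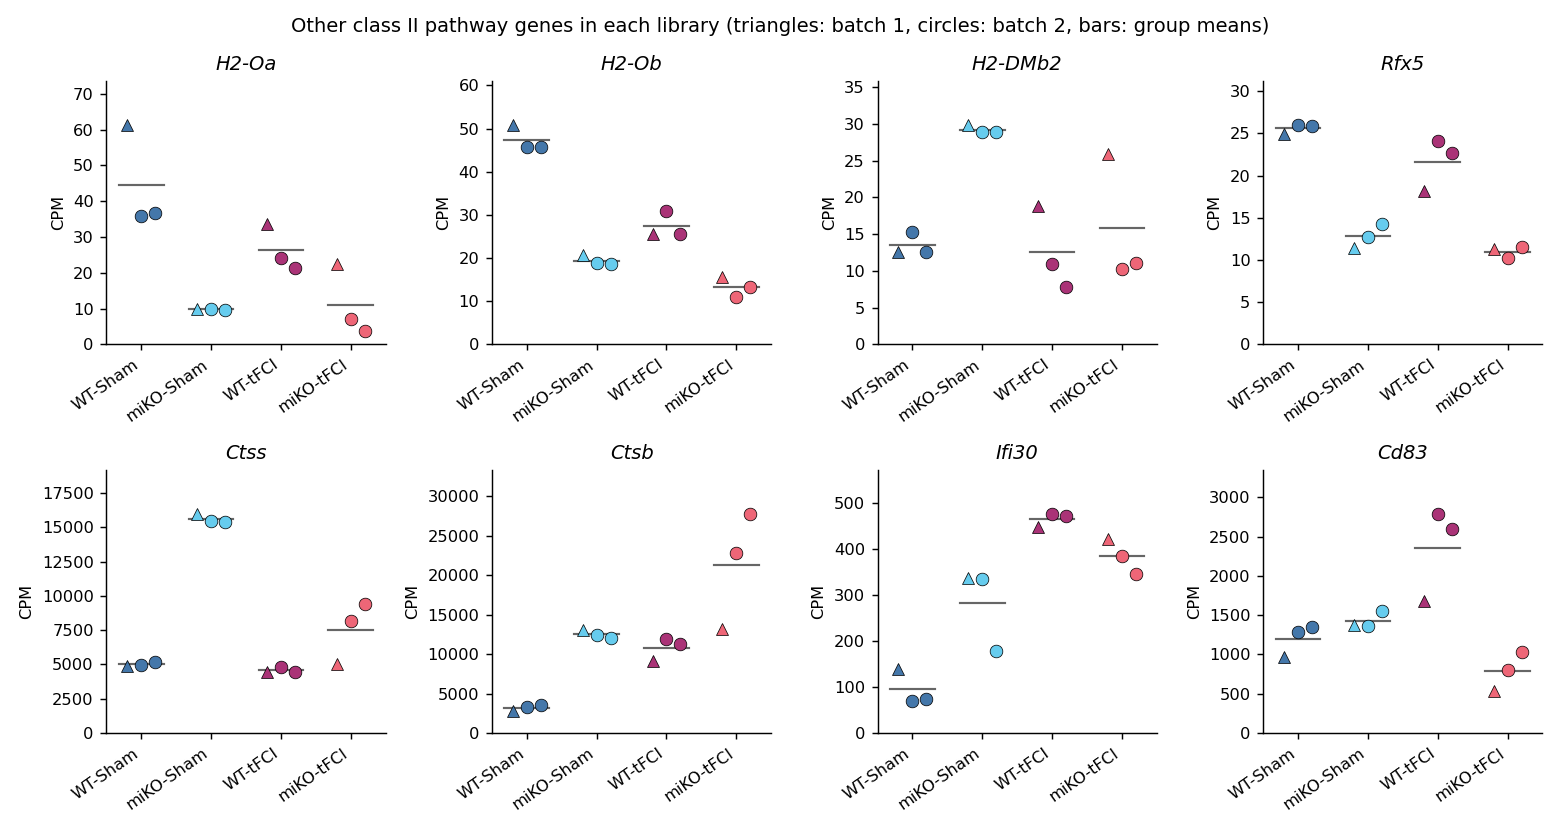
CPM of 8 other class II pathway genes in each library, by group, on linear axes from 0. Triangles are batch 1 libraries, circles batch 2 libraries and bars group means. H2-Ob and Rfx5 were lower in miKO than in WT libraries after either surgery, Ctss was at 15380 to 15993 CPM in miKO-Sham, and Cd83 was at 533 to 1035 CPM in miKO-tFCI.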

How the data were processed

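RNA was sequenced from sorted CD11b+ CD45int cells in 12 libraries, 3 for each combination of genotype (WT or miKO) and surgery (Sham or tFCI). Per the labels, libraries were made with SMART-Seq v4, and the processing notes name FastQC 0.11.9, Trim Galore, HISAT2 2.2.1, SAMtools and HTSeq 1.99.2 with mm10/GRCm38.p6. The authors deposited raw counts of reads per gene for each library, with no normalization. The annotation release was not given in the sources used here, and 55141 of 55401 gene IDs matched GENCODE M21, which gave symbols, positions and exon lengths.

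Lines that name no gene were left out of library sizes. Counts were filtered by filterByExpr, scaled by TMM and fitted with edgeR 4.0.16 (limma 3.58.1, R 4.3.3) by glmQLFit and glmQLFTest over all 12 libraries, with group and batch as terms. P-values were adjusted by Benjamini-Hochberg over 16451 genes. A gene was called where its log2 fold change exceeded 0.58 in size and its adjusted p was under 0.05 (for the interaction and the batch term, the adjusted p alone). CPM used TMM-scaled library sizes, RPKM also divided by exon length, and log2 CPM for correlations and values within a batch used a prior count of 2. The scripts were tested on simulated data.

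Named genes were the 7 members, Hdac3, pathway genes called at a mean CPM of at least 10 or being direct partners of the members, the 8 genes most like the chains, and markers that moved with them. The members and lists were chosen with earlier results of these data known. Replicates 1 and 2 of miKO-Sham were the closest pair within a group (chi-square per degree of freedom 2.82, against 3.65 to 76.6 for other pairs) and share a sample tag in their file names, but were kept as separate samples, as labelled. Ratios were compared by exact two-sided permutation. Alternatives were RLE factors, DESeq2 1.42.0, other filters, no batch term, a replicate block, subsets of libraries and scaling to microglia markers. Precision is limited by 3 libraries a group and, for Ciita and cell type markers, by low counts, and error values cover the spread between libraries. The labels name another cell sorter than the study's methods. Some genes of these lists are not reported here.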

Additional observations from a re-analysis of the deposited data

Results flagged for a closer look

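Genotype differed in its effect between Sham and tFCI for 7 of the genes described, by the interaction term of edgeR's quasi-likelihood test, where 3.82% of all genes were called and 2.57% were lower. H2-DMa gave an interaction of −0.82 on the log2 scale (adjusted p = 0.0311, edgeR), the only member to do so, with a response to tFCI of −0.08 in WT and −0.90 in miKO mice. Among genes of endosomal processing, Ctsb gave −1.05, Ctsd −1.17, Ctsz −1.44 and Ifi30 −1.90, each having risen in miKO-Sham over WT-Sham. Cd83 gave −1.87 and Cd9 −1.56. In both batches each of these 7 values was negative, but the genes were picked by a fit to the same libraries, so the shared sign is no separate support. The H2-DMa call was lost in 7 of 12 fits that left out 1 library, without the batch term and with the microglia scaling.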

How the results depend on the processing

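With 3 libraries a group, the log2 fold changes of the chains and Cd74 between groups had SEs of 0.51 to 0.75, so differences of that size lay within the error, and Ciita rested on as few as 1 count. The labels do not say what separated the batches, and each library is a pool of hemispheres, so p-values measure the spread between pools.

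The labels tie the replicate numbers to the batches and to nothing else. The correlations of same-numbered deviations from the group means ran from 0.0978 to 0.67 for number 1, from −0.061 to 0.33 for number 2 and from 0.11 to 0.32 for number 3, and they hold the batch difference. Within batch 2, differences of replicate 2 from replicate 3 correlated between groups at −0.033 to 0.12. Not every pair was over 0.1, so the numbers were not taken as pairs. The fit with the replicate number as a block called 0 of 7 members in WT-tFCI vs. WT-Sham, 1 in miKO-tFCI vs. miKO-Sham, 0 in miKO-Sham vs. WT-Sham, 0 in miKO-tFCI vs. WT-tFCI and 1 in the interaction, as did the fit without it.

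Counts of members called moved in several other settings, and the cause was not tested. In WT-tFCI vs. WT-Sham (0 called) batch 2 alone called 2 and scaling to the microglia markers 1. Of all genes these settings called 4686 of 16219 and 7124 of 16451. In miKO-tFCI vs. miKO-Sham (1 called) batch 2 alone called 4 and a separate batch effect for Sham and tFCI 3. Of all genes these settings called 4412 of 16219 and 6499 of 16451. In miKO-Sham vs. WT-Sham (0 called) no filter on low counts, batch 2 alone and summed miKO-Sham replicates 1 and 2 called 2 each, and the 2 groups alone, the microglia scaling, the separate batch effect and an adjusted p alone 1 each. Of all genes the first settings called 3051 of 34185, 2521 of 16219 and 2482 of 17238. The others called 2479 of 14188, and 2382, 2886 and 2972 of 16451. In miKO-tFCI vs. WT-tFCI (0 called) no filter and the 2 groups alone called 4 each, and the microglia scaling and the separate batch effect 1 each. Of all genes these settings called 2193 of 34185, 2535 of 15478, and 5212 and 2032 of 16451. In the interaction (1 called) no batch term and the microglia scaling called 0.

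Leaving out each library in turn gave 0 to 0 calls in WT-tFCI vs. WT-Sham, 1 to 2 in miKO-tFCI vs. miKO-Sham, 0 to 2 in miKO-Sham vs. WT-Sham, 0 to 0 in miKO-tFCI vs. WT-tFCI and 0 to 1 in the interaction. Log2 fold changes that changed sign ranged as follows. In WT-tFCI vs. WT-Sham these were Cd74 −0.56 to 0.0051, Ciita −0.95 to 0.22, H2-Ab1 −0.64 to 0.054 and H2-DMa −0.19 to 0.039. In miKO-tFCI vs. miKO-Sham these were Cd74 −1.04 to 0.47, Ciita −0.071 to 3.25, H2-Aa −0.71 to 1.13, H2-Ab1 −0.63 to 1.60 and H2-Eb1 −0.66 to 1.23. In miKO-Sham vs. WT-Sham these were Ciita −2.59 to 0.55, H2-Aa −0.34 to 1.31, H2-Ab1 −0.83 to 1.21, H2-DMb1 −0.081 to 0.063 and H2-Eb1 −0.50 to 1.22. In miKO-tFCI vs. WT-tFCI these were Ciita −0.46 to 1.88, H2-Aa −0.12 to 1.75 and H2-Ab1 −0.27 to 1.63. In the interaction these were Cd74 −0.94 to 0.63, Ciita −0.17 to 3.56, H2-Aa −0.62 to 1.39, H2-Ab1 −0.67 to 1.80 and H2-Eb1 −0.31 to 1.61.

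Without the batch term the sign turned for Cd74 0.27, Ciita 0.66, H2-Aa 0.45, H2-Ab1 0.49, H2-Eb1 0.18 in WT-tFCI vs. WT-Sham, Cd74 0.45 in miKO-tFCI vs. miKO-Sham, H2-Eb1 −0.053 in miKO-Sham vs. WT-Sham, and Cd74 0.18 in the interaction. With batch 2 alone it turned for H2-DMa 0.022 in WT-tFCI vs. WT-Sham, Ciita −0.51, H2-Aa −1.12, H2-Ab1 −1.08, H2-Eb1 −1.02 in miKO-tFCI vs. miKO-Sham, H2-DMb1 −0.040 in miKO-Sham vs. WT-Sham, and H2-Aa −0.18, H2-Ab1 −0.27, H2-Eb1 −0.011 in the interaction. With a separate batch effect, added after the data were seen, it turned for Cd74 0.22, Ciita 0.24, H2-Aa 0.17, H2-Ab1 0.32 in WT-tFCI vs. WT-Sham, and Cd74 0.21 in miKO-tFCI vs. miKO-Sham. With miKO-Sham replicates 1 and 2 summed, also added later, it turned for Ciita −0.017, H2-Aa −0.71, H2-Ab1 −0.63, H2-Eb1 −0.61 in miKO-tFCI vs. miKO-Sham, Ciita 0.72 in miKO-Sham vs. WT-Sham, and H2-Aa −0.30, H2-Ab1 −0.30, H2-Eb1 −0.091 in the interaction. With no filter it turned for H2-DMb1 −0.00020 in miKO-Sham vs. WT-Sham. With a minimum of 10 counts in each library the sign turned for H2-DMb1 −0.021 in miKO-Sham vs. WT-Sham. Scaling to the microglia markers moved the median log2 fold change of all genes from 0.02 to 0.64 in WT-tFCI vs. WT-Sham, from 0.03 to 0.98 in miKO-tFCI vs. miKO-Sham, from 0.04 to 0.25 in miKO-Sham vs. WT-Sham and from 0.04 to 0.58 in miKO-tFCI vs. WT-tFCI. Under it the sign turned for Cd74 0.45, Ciita 0.42, Ep300 0.0045, H2-Aa 0.32, H2-Ab1 0.41, H2-DMa 0.54, H2-Eb1 0.19, Rfxap 0.045 in WT-tFCI vs. WT-Sham, Cd74 0.67, Cd83 0.033, H2-DMa 0.037, H2-DMb1 0.89, Ifngr2 0.31, Il10rb 0.29, Irf8 0.0032, Spi1 0.25, Tfeb 0.11 in miKO-tFCI vs. miKO-Sham, H2-DMa 0.20, H2-DMb1 0.34 in miKO-tFCI vs. WT-tFCI, and Cd74 0.22, H2-DMb1 0.11 in the interaction.

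For members, 328 of 401 values kept their direction and their side of the threshold in settings that kept every replicate. Calls of the other pathway genes moved by over 1.5 times in miKO-tFCI vs. miKO-Sham (14, and 22 with an adjusted p alone), in miKO-tFCI vs. WT-tFCI (8, with 4 without the batch term, 13 with the microglia scaling, 4 without WT-tFCI replicate 2 or 3, and 5 without miKO-tFCI replicate 2 or 3) and in the interaction (6, with 10 by DESeq2 and 3 with the microglia scaling). Ratios in batch 2 alone moved by more than the spread between replicates for Cd74 to H2-Eb1 (0.69 in miKO-Sham vs. WT-Sham) and for H2-DMb1 to H2-Ob (0.78 in WT-tFCI vs. WT-Sham).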
